A study of Mus musculus with 28 samples.

Results

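The comparison set H2BK120ac coverage in the group coded TT against that in the group coded ET, in mouse embryonic stem cells (mESCs). Its members were the 3 TT and the 3 ET samples, 6 of the 28 samples of the study, and it covered all 127646 regions of the deposited table. Both groups, and every other group used here, carried the FOXD3-iKO genotype, were grown in L2i medium and had a labelled treatment time of 24 h. FOXD3, which belongs to the forkhead family and acts in early embryonic cells, was depleted by tamoxifen (4HT) and the depleted cells were set against solvent-treated ones. The titles name the H2BK120ac groups ED, ET, TD and TT without spelling out either letter. Which groups had received 4HT was not stated, so the codes are kept. The table name gives the cells as asynchronous. It also holds the letters trp, which are not spelled out, and whether they name a further condition of these groups was not stated. The driver of the inducible knockout, and whether the line is 1 clone, were not stated. TD and ED, 3 samples each, served for a side-by-side reading of the same change of the first letter, and H3K27ac in 2 EtOH and 2 4HT samples of asynchronous cells as a reference mark.

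The authors had merged the replicates of each group into 1 column, so no spread between replicates exists here and no test was run. Values are depth-normalized coverage (CPM) per region, and folds were taken on log2(value + 0.4). Each column rested on few fragments. Its commonest value, 0.445 CPM in ET and 0.415 CPM in TT, was read as 1 fragment, which implied 2.25 M fragments for ET and 2.41 M for TT. The lowest values were 0.25 of the commonest, so every pile-up and interval below rests on that reading. Intervals on ratios are 95% Clopper-Pearson intervals on pile-ups rounded to whole fragments, and cover counting error only. A pile-up is a mean coverage and not a count of fragments, so these intervals are approximate. In ET 38.7% of the regions had no coverage, and in TT 47.5%. A pile-up of at least 20 fragments was reached by 31 regions in ET and by 258 in TT. The highest value was 16.7 CPM in ET and 37.4 CPM in TT.

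H2BK120ac is the acetylated form of a lysine near the carboxyl end of histone H2B. The same lysine can instead carry ubiquitin, which is placed in transcribed genes, and a single residue cannot carry both. The acetylated form is found at active promoters and enhancers, together with H3K27ac. In CUT&Tag an antibody tethers a transposase to chromatin that carries the mark, and the inserted adaptors yield the sequenced fragments. p53 is a stress-activated transcription factor. It binds a response element made of a pair of decamers and turns on genes of cell cycle arrest, repair, cell death and its own feedback.

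Sequence windows of promoters are shown first, because the p53 targets Ccng1, Bbc3, Rap2b and Cdkn1a were among the 10 promoter regions of highest TT value. A RefSeq window (GRCm38.p6) reached from 250 bases before a transcription start site (TSS) to 50 bases after it. Such windows were found for 17492 of 21900 protein-coding genes and for 27 of the 35 listed p53 targets. They were searched on both strands for a 20-base p53 element without a spacer, with both CNNG cores intact, A or T at their middle bases, and at most 2 mismatches elsewhere. The element was present in 5 of 357 windows (1.40%) whose region was well covered and at least 2-fold higher in TT, in 0 of 64 well-covered windows that were not, and in 28 of all 21263 windows (0.132%). A match describes letters only. The 5 windows follow, with the element in capitals.
Cdkn1a (chr17:29090729-29091028, plus strand): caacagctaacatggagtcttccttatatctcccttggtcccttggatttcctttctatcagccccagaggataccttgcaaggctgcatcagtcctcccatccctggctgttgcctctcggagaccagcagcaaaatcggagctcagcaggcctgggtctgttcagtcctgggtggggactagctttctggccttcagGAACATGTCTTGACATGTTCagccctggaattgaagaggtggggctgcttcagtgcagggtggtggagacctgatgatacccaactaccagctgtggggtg
Ckap2 (chr8:22185770-22186069, minus strand): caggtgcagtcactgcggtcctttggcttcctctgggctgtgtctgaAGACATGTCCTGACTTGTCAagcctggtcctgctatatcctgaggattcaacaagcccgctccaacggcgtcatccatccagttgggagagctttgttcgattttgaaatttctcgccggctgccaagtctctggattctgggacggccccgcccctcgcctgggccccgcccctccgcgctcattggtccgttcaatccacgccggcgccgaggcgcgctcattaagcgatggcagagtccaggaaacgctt
Rps27l (chr9:66946163-66946462, plus strand): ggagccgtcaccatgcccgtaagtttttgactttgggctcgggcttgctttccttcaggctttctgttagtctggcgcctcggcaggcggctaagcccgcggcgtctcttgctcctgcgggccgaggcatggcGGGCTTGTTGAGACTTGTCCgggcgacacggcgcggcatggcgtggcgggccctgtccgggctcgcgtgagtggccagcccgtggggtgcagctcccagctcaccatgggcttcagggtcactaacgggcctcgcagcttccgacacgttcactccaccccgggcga
Stox2 (chr8:47352299-47352598, minus strand): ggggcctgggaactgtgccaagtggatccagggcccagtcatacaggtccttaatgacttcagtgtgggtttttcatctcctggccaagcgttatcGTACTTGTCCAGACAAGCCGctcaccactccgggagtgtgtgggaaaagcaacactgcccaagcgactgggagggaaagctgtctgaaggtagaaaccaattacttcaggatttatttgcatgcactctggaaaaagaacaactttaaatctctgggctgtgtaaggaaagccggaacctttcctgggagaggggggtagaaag
Gtse1 (chr15:85859696-85859995, plus strand): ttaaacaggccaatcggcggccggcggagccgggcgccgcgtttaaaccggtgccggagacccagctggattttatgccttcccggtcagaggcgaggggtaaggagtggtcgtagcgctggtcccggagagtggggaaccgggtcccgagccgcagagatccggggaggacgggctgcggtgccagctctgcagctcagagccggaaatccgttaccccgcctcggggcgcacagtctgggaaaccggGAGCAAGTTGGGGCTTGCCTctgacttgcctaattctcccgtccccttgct
The match had 1 mismatch in Cdkn1a, Rps27l and Gtse1 and 2 mismatches in Ckap2 and Stox2. Cdkn1a encodes the cell cycle inhibitor p21, Rps27l a ribosomal-protein-like factor and Gtse1 a protein of G2 and S phase, and these 3 stood on the p53 lists. Windows of other strongly covered p53 targets held no match, for example those of Bbc3 and Mdm2, in which the GC box (GGGCGG on either strand) is in capitals instead. The region of a window lies within 1 kb of its TSS and need not overlap the window. The covered Mdm2 region lies 265 bp from the TSS, outside the window shown, so its own sequence was not searched.
Bbc3 (chr7:16309333-16309632, plus strand): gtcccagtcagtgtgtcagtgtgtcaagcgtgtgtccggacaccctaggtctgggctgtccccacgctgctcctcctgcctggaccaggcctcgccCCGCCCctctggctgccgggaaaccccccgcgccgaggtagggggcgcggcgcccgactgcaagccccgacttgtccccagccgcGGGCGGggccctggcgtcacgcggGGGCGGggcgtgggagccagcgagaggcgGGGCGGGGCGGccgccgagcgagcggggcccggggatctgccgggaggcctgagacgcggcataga
Mdm2 (chr10:117710709-117711008, minus strand): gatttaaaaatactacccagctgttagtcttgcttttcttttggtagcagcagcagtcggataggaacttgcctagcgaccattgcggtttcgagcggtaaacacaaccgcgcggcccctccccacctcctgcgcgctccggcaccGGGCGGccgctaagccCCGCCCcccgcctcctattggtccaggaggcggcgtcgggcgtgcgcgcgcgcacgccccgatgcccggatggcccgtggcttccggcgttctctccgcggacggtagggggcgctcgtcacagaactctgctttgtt
Bbc3 held 5 GC boxes and Mdm2 held 2. The GC box occurred in 70.6% of the well-covered higher windows, in 57.8% of the well-covered windows that were not higher and in 46.2% of all windows. Median GC content was 63.7%, 59.7% and 56.3%, and the median number of CpG was 24, 20 and 13, in the same order. All windows include those without a region. In the 14164 windows with a region within 1 kb the GC box share was 64.1%, with medians of 61.3% GC and 20 CpG. The 9072 windows whose region had a mean of at least 0.4 CPM but was not well covered had 67.8%, 62.0% and 22. The higher windows were thus close to other covered windows.

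Coverage in TT relative to ET was highest within 1 kb of a TSS and declined beyond it. As deposited, TT was above ET near genes and below it far from them, over all regions and with missing values as 0. In the 12387 regions that overlap a TSS the mean was 0.748 CPM in TT and 0.478 in ET, a ratio of 1.57. In the 6327 regions within 1000 bp of a TSS without overlap the ratio was 1.63. It was 1.03 between 1 and 10 kb, 0.895 between 10 and 50 kb and 0.715 between 50 and 200 kb. Beyond 200 kb, in 15572 regions, TT had 0.253 and ET 0.468, a ratio of 0.542. Scaling both columns to the same median over the well-covered regions defined below would divide TT by 1.68, which gives 0.934 at a TSS, 0.973 within 1000 bp and 0.323 beyond 200 kb. TT then lies below ET in each of the 6 distance classes, so the direction near genes depends on the scaling. That factor comes from the well-covered regions, which a region can enter through TT alone. Over all 127646 regions the medians stood in the other order, 0.207 CPM in TT and 0.445 in ET, and scaling to those was not done. The ET mean was about as high beyond 200 kb as at a TSS, while the TT mean declined at each step of distance. Among the 1000 regions of highest value, 20.6% lay within 1 kb of a TSS in TT and 0.5% in ET, where all regions together gave 14.7%. The share beyond 50 kb was 22.4% in TT and 56.6% in ET.

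**Figure D1:**
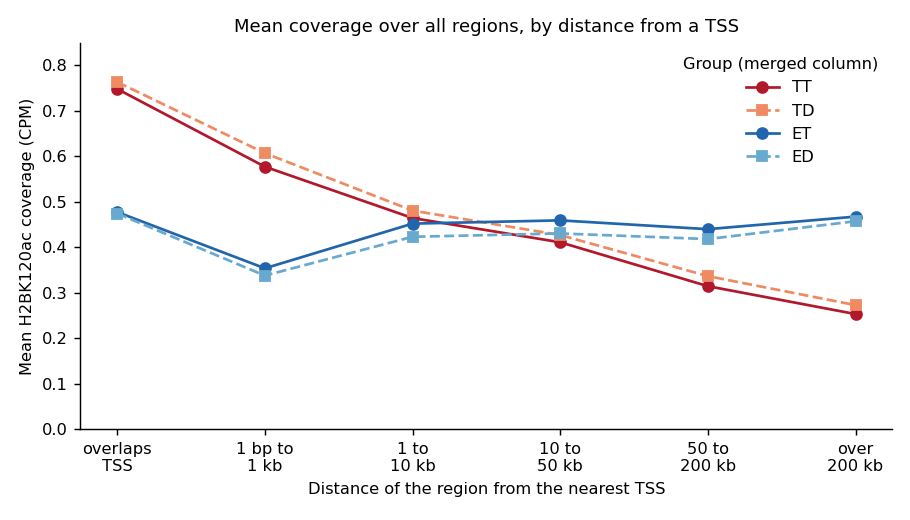
Mean H2BK120ac coverage (CPM, vertical axis) over all regions of each class of distance from the nearest TSS (horizontal axis). Points are the means of the merged TT, TD, ET and ED columns without an error bar, because each group is 1 column. TT falls from 0.748 at a TSS to 0.253 beyond 200 kb, and ET has 0.478 and 0.468. The values are as deposited. After scaling to equal medians over the well-covered regions alone, TT lies below ET in every class.

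Regions whose mean pile-up over TT and ET reached 5 fragments were called well covered. There were 2892, of which 1390 were at least 2-fold higher in TT (48.1% of the well-covered regions) and 676 at least 2-fold lower (23.4%). The median log2 fold was 0.89. Scaling both columns to the same median over these regions, which divides TT by 1.68, gave 945 higher and 937 lower, so the balance of directions over all regions depends on the scaling. The 435 promoter regions, defined as lying within 1 kb of a TSS, had medians of 4.37 CPM in TT and 0.919 in ET. Of them 367 were higher and 2 lower, with a median log2 fold of 2.0, and after the same scaling 270 were higher and 6 lower. The 2457 distal regions had medians of 3.39 and 2.67 CPM, with 1023 higher and 674 lower and a median log2 fold of 0.45. That distal median was -0.20 after the same scaling. A region high in only 1 group can enter through that group, which makes large differences likely among well-covered regions. In the 1501 of them with at least 3 fragments in each group, 420 were higher and 257 lower, with a median log2 fold of 0.24. Regions inside the span of a gene numbered 1402, with 949 higher and 148 lower, and of the 1490 outside gene spans 441 were higher and 528 lower.

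**Figure D2:**
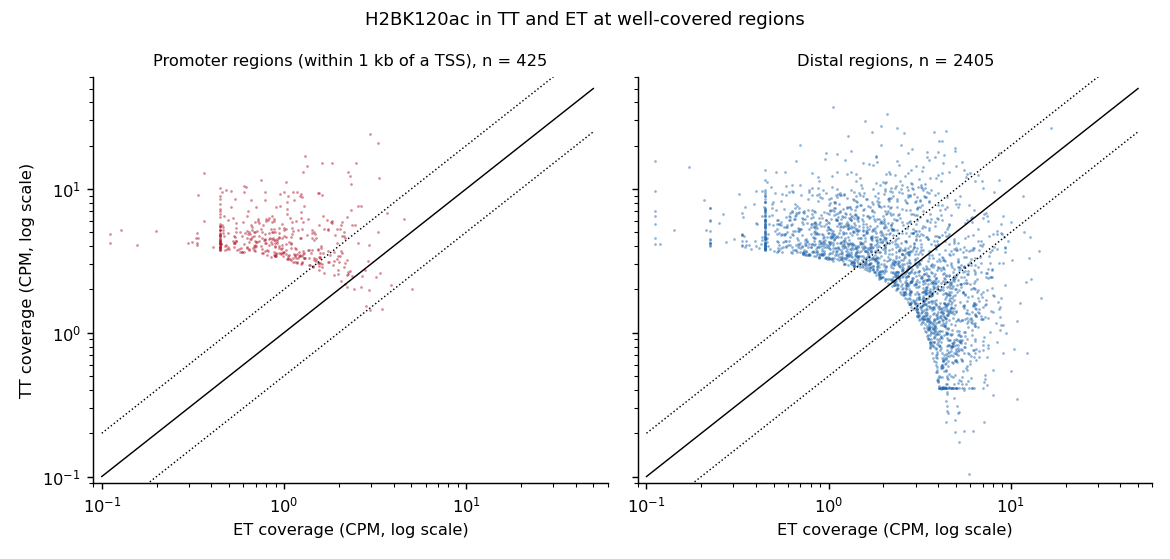
TT coverage (CPM, vertical, log scale) against ET coverage (CPM, horizontal, log scale) for the well-covered regions that both groups covered, 425 promoter and 2405 distal regions. The solid line marks equal values and the dotted lines 2-fold differences, and the curved lower edge is set by the minimum mean coverage. Promoter points lie nearly all above the upper dotted line or between the lines, and distal points spread to both sides.

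Among the well-covered regions, H3K27ac, measured in other samples, differed between those that were higher in TT and those that were lower. A region can enter this set through TT or ET alone. H3K27ac in EtOH had a Spearman's rho of 0.51 with ET and -0.25 with TT there. Its rho with the log2 fold was -0.43 there, but -0.04 in the 49296 regions with a mean of TT and ET of at least 0.4 CPM. The classes below therefore describe the well-covered set only. The 674 distal lower regions had a median H3K27ac of 2.43 CPM in the EtOH column, and 60.5% of them had 2 CPM or more. The 1023 distal higher regions had a median of 0.774 CPM, and 21.5% had 2 CPM or more while 35.1% were under 0.5. The 760 distal regions between the thresholds had a median of 2.90 CPM. Promoter regions that were higher in TT had a median of 1.58 CPM, and the 66 promoter regions between the thresholds 2.99 CPM. The median log2 fold of H3K27ac in 4HT against EtOH lay between 0.36 and 0.46 in each of these classes. Over all distal regions that median was 0, and over all promoter regions 0.12. The share of regions at least 2-fold higher in 4HT was 12.2% among distal higher and 9.79% among distal lower regions. Among all distal regions it was 12.1%. It was 6.81% among promoter higher regions and 7.36% among all promoter regions, so the shares of both higher classes were close to those of all such regions.

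The same contrast between promoters and distal regions appeared when regions were sorted by H3K27ac alone and none was left out for low H2BK120ac. At promoter regions with 2 to 4 CPM of H3K27ac in EtOH, 714 in number, mean H2BK120ac was 2.19 CPM in TT and 0.947 in ET, a ratio of 2.31. At the 2489 distal regions of the same H3K27ac level it was 1.49 in TT and 2.03 in ET, a ratio of 0.736. Promoter regions without H3K27ac had nearly equal means, 0.185 in TT and 0.177 in ET. Distal regions without H3K27ac had 0.147 and 0.178. In both groups the mark was higher where H3K27ac was higher, and at promoters the slope was steeper in TT.

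Among promoter regions covered in both groups, the 10 largest differences had a p53 target at the top and included several genes outside the p53 lists. Inside Cdkn1a, at a second start site (chromosome 17, 29093528 to 29093872), TT had 12.8 CPM and ET 0.364, and the counting interval of the ratio was 4.81 to 1177. The Mdm2 region (chromosome 10, 117709943 to 117710493, 265 bp from a TSS) had 10.4 against 0.607. Mdm2 encodes the ubiquitin ligase that degrades p53. Traf4, an adaptor of tumour necrosis factor receptors, had 10.2 against 0.445 at its start site (chromosome 11, 78165408 to 78165968). Srsf5, a splicing factor, had 9.86 against 0.480. Sdc4, a heparan sulfate proteoglycan of the cell surface, had 9.72 against 0.512. Ptp4a1 (9.60), Cd81 (9.04), Enc1 (8.94), Fbxw9 (8.48) and Hnrnpa2b1 (5.22) made up the rest of the 10, with ET values from 0.128 to 0.455. All 10 lower interval bounds exceeded 2.8, and the upper bounds were wide because ET rested on about 1 fragment or less. For Hnrnpa2b1 the ET pile-up of 0.287 was rounded to 0, so its ratio has no upper bound.

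Among the 435 well-covered promoter regions, those below ET were few and their differences small. A region can enter this set through TT alone. With a minimum of 3 fragments 35 of 1443 promoter regions were at least 2-fold lower. Of the 8929 genes with a kept promoter region 304 were at least 2-fold lower (3.4%). Nqo1, a quinone reductase regulated by NRF2, had 2.02 CPM in TT and 5.02 in ET (chromosome 8, 107402941 to 107403816), a log2 fold of -1.16. The interval of its ratio, 0.12 to 1.32, includes 1. The other well-covered promoter region past 2-fold lay 370 bp from C130073F10Rik, with 1.45 against 3.44. Phf11d, Upp1, Asb8 and Mylpf had log2 folds from -0.88 to -0.48, and the interval of each of these ratios includes 1 as well.

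p53 targets of arrest, repair and feedback were high in TT and near the level of 1 to a few fragments in ET. Each gene was given the mean of its regions within 50 kb of its TSS, of which those with a mean of TT and ET of at least 0.4 CPM were kept. Of the 22 listed genes 21 were measured, 12 were at least 2-fold higher and 0 lower, with a median log2 fold of 1.08 (8 and 1 after scaling to equal medians, with a median of 0.69). Over all 13083 measured genes 12.8% were higher, 6.96% lower and the median was -0.01. Among promoter regions alone 16 of 21 genes were higher and 0 lower, where 19.3% of all 8929 genes with a kept promoter region were higher and 3.4% lower. With no region left out, the mean over the 21 promoters was 5.73 CPM in TT and 0.892 in ET, a ratio of 6.42, and over all 13605 promoters the ratio was 1.58. These lists were composed with knowledge that p53 targets differed in these data.

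Ccng1, which encodes cyclin G1, had the highest promoter value of the p53 targets. It had 21.0 CPM in TT, 3.28 in ET, 27.1 in TD and 2.12 in ED (chromosome 11, 40754734 to 40755860), and the TT to ET ratio was 6.42 (3.07 to 17.7). Rap2b, a small GTPase, had 14.5, 1.34, 16.2 and 1.01 in that order, with a ratio of 10.8 (3.43 to 55.2). The Cdkn1a region at the start site of the window shown had 12.3, 2.31, 13.6 and 1.25, with a ratio of 5.30 (2.15 to 18.4). In these genes TT and TD were both high, and ET and ED were both low. Mdm2 had 10.4, 0.607, 11.3 and 0.445. Ak1, an adenylate kinase, had 9.54, 0.788, 8.13 and 0.730. Rps27l had 8.82, 1.26, 9.67 and 0.552. Plk2, a stress-regulated kinase, had 6.23, 0.887, 9.63 and 0.665, and Gtse1 had 6.15 in TT and 0.724 in ET. The antiproliferative gene Btg2 had 5.18 against 0.445 and the sestrin gene Sesn2 4.35 against 0.525. Ei24 (5.59 against 0.764), Zmat3 (3.71 against 0.789), Sulf2 (3.08 against 0.111) and Ercc5 (2.33 against 0.445) had lower values in the same direction. Not every member differed. Promoters of Sesn1 (0.591 against 0.445), Ppm1d (1.03 against 0.928), Rrm2b (0.587 against 0.445), Xpc (0.811 against 0.620) and Ddb2 (1.18 against 1.06) were close to equal, and the gene value of Ddb2, a damage recognition factor, had a log2 fold of -0.60. Gadd45a and Fbxw7 had promoter log2 folds of 1.02 and 1.18 and gene log2 folds of 0.66 and 0.63. Polk had no kept region assigned to it, and the region over its start site (2.05 against 0.445) was assigned to Cert1, which starts beside it.

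Death genes of the p53 programme had the same direction. Of 13 listed genes 12 were measured, 9 were at least 2-fold higher and 0 lower, with a median log2 fold of 1.52 (7 and 0 after scaling to equal medians, with a median of 1.05), and 10 of 12 kept promoters were higher. Bbc3, which encodes the BH3 protein PUMA, had 15.1 CPM in TT, 2.50 in ET, 19.8 in TD and 1.56 in ED, with a ratio of TT to ET of 6.03 (2.33 to 16.2). Phlda3, a pleckstrin-homology protein that restrains AKT, had 8.97 against 1.05, with a ratio of 8.51 (2.52 to 89.9). Trp53inp1, a p53-induced nuclear protein, had 8.95 against 1.22. The receptor gene Eda2r had 6.53 against 1.63, the pore-forming Bax 4.32 against 0.549, the caspase activator Pidd1 4.23 against 0.445 and the nuclease gene Aen 3.38 against 0.614. The death receptor gene Fas had 3.15 in TT and no coverage in ET or ED, with 2.52 in TD. Apaf1, the scaffold of the apoptosome, had 2.22 against 0.445. Members closer to equal were Perp (1.72 against 1.12) and Pmaip1 (1.65 against 0.858), which encodes NOXA, and Tnfrsf10b had 1.53 against 0.445. The promoter region of Tnfrsf23 had no coverage in any of the 4 columns.

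**Figure D3:**
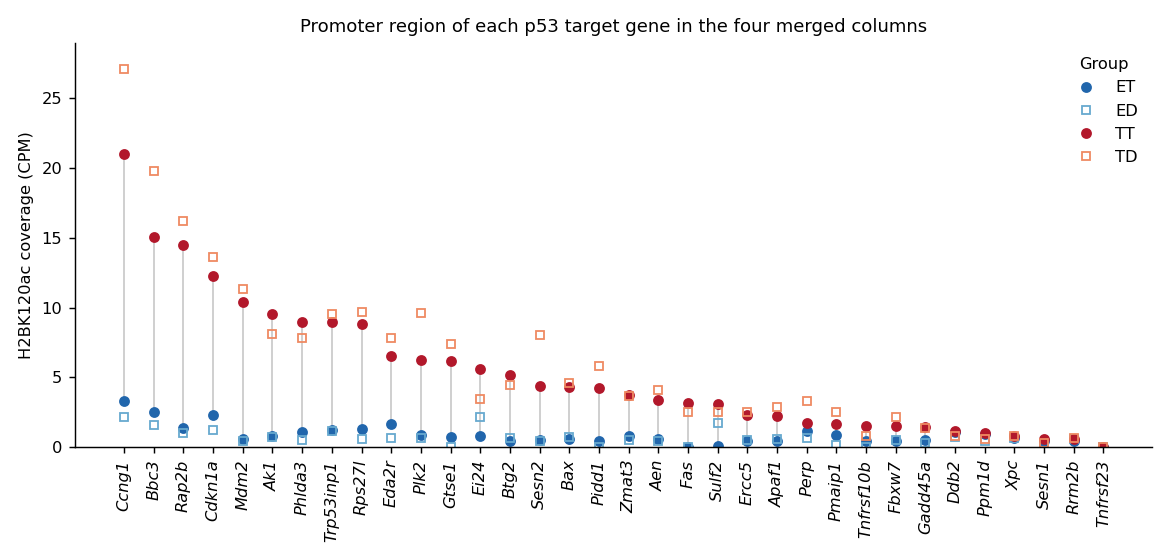
H2BK120ac coverage (CPM, vertical axis) at the promoter region of each p53 target gene (horizontal axis, ordered by TT), with 1 point per merged column and a grey line from ET to TT. TT and TD lie above ET and ED for the genes from Ccng1 (21.0 in TT) to Apaf1, and the 4 columns come together at Ddb2, Ppm1d, Xpc, Sesn1 and Rrm2b.

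Distal regions of high TT value lay both at a p53 regulator and at genes outside the p53 lists. The highest TT value of all lay within Ranbp3, 6914 bp from the TSS of Vmac (chromosome 17, 56709777 to 56710007), with 37.4 CPM against 1.06 in ET, and the interval of the ratio was 11.3 to 351. Upstream of Gpr157 a pair of regions had 29.8 against 1.58 (chromosome 4, 150048557 to 150049268) and 15.8 against 0.111 (150049754 to 150049908). Inside Mdm4, the gene of a p53 inhibitor related to MDM2, a region 4996 bp from the TSS had 25.4 against 4.41 (chromosome 1, 133020182 to 133020420). Within Arhgef33 a region had 14.2 against 0.171, within Agap1 20.1 against 0.695, within Nceh1 13.5 against 0.445 and within Sema4b 15.7 against 0.663. The regions in Foxn2 (9.66 against 0.111), near Gadl1 (13.1 against 0.513) and in Tcerg1l (7.07 against 0.111) completed the 10 largest folds among distal regions covered in both groups, to which the one in Mdm4 does not belong. H3K27ac in EtOH was between 0.302 and 1.98 CPM at 9 of these 10 regions and 4.03 at the one in Ranbp3.

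Coverage was absent in ET at 41 well-covered regions and absent in TT at 21. The highest of the first kind lay within Setd7, a lysine methyltransferase gene, with 12.8 CPM in TT, at least 9.59-fold above the level of 3 fragments in ET. Next were a region at the start of Gask1b (10.5), one near Ttll10 (9.71), one 46028 bp from Ier5 (9.36) and one within Ptpre (8.52). The highest of the second kind was 1006958 bp from Lsm8, with 10.7 in ET. Regions near Manea (7.14), Slc24a2 (6.97) and Magi2 (6.53) were also without TT coverage. Each of these regions lay at least 124077 bp from a TSS.

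Well-covered distal regions lower in TT lay, at the median, farther from genes than distal regions as a whole. Their median distance from a TSS was 82807 bp and 21.8% lay inside a gene span, against 23902 bp and 59.0% for distal regions higher in TT. All distal regions had 39176 bp and 48.8%, and the well-covered distal regions between the thresholds 33827 bp and 33.2%. The 25th percentile of the distance was 23141 bp in the lower regions, so some lay near genes. The lowest log2 fold with coverage in both groups was -3.90, at a region 1479358 bp from Gm29667 (chromosome 1, 101756433 to 101757502), with 0.348 CPM in TT and 10.8 in ET. Regions assigned to Clec14a (0.104 against 5.93), Sez6l (0.239 against 7.17), Tecrl (0.726 against 12.2), Slc38a11 (0.540 against 10.1), Chordc1 (0.367 against 8.0), Cdh19 (0.207 against 6.19), Galnt2 (0.207 against 5.56), Adcyap1 (0.174 against 5.17) and Hs3st5 (0.434 against 7.43) completed the lowest 10 of those covered in both groups. The upper bounds of the 10 ratio intervals were at most 0.375. Their H3K27ac in EtOH ranged from 1.31 to 7.69 CPM. The nearest gene need not be the one a region acts on.

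Gene lists beside p53 differed mainly in how far their promoters were marked in TT. Promoter ratios below are of the mean TT to the mean ET over every promoter of the list with a region, to be read against 1.58 for all promoters. Scaling to equal medians divides each of them by 1.68, so a list below that value then lies under 1. Counts of genes past 2-fold are to be read against 12.8% higher and 6.96% lower of all measured genes, and after that scaling against 5.72% and 21.4% of the 10753 genes then measured. Splicing factors had a ratio of 6.10, from 2.99 CPM in TT and 0.490 in ET. Of 19 measured splicing genes 11 were at least 2-fold higher and 0 lower, with a median log2 fold of 1.23, and after scaling 6 of 17 were higher. Ptbp1, a repressor of exons, had 7.05 in TT and no coverage in ET, and Tra2b 4.40 against 0.890. Hnrnpa1 had the largest gene fold, a log2 fold of 3.14.

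Ribosomal protein genes had a ratio of 3.04, with 19 of 51 higher and 0 lower and a median of 0.69, and with 6 of 48 higher after scaling. Rpl19 had 6.21 against 1.35 and Rpl4 3.09 against 0.559 at the promoter. Translation factors had 2.93, with 6 of 20 higher (2 after scaling), among them the helicase gene Eif4a1 (3.05 against 0.223) and Eif1a (4.87 against 1.49). G1-S and replication genes had 3.11, with 10 of 23 higher and 0 lower, and 4 of 19 higher after scaling. Among them were Orc1, an origin recognition subunit (4.10 against 0.483), and Mcm7, a subunit of the replicative helicase (3.51 against 0.905). G2-M genes had 2.50, with Ccna2 and Ccnb1 higher and Bub1 lower among 15, close to the shares of all genes. Proteasome genes had 2.06 with 5 of 23 higher and respiratory chain genes 2.28 with 4 of 22 higher, and in both lists 0 were higher after scaling. DNA repair genes had 2.15 with 5 of 23 higher and Xrcc5 lower, which became 1 higher and 3 lower of 19. Glycolysis and hypoxia genes had 1.30, below all promoters, and Ldha was the 1 of 20 genes past 2-fold, while after scaling 0 were higher and 5 of 19 lower.

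Stress and signalling genes varied by member. Immediate early and AP-1 genes had a ratio of 3.66, with 7 of 18 genes higher (3 of 16 after scaling), and Junb, an AP-1 subunit, had 8.57 CPM in TT, 0.537 in ET, 14.0 in TD and 0.404 in ED. Egr2 (0.415 against 0.664) and Klf6 (2.01 against 2.20) did not share this. Lysosome and autophagy genes had 2.93 with 5 of 19 higher and Becn1 lower, and with 5 higher and 5 lower of 17 after scaling. The autophagy kinase gene Ulk1 had 15.1 against 1.84, the protease gene Ctsd 11.3 against 1.03 and the folliculin gene Flcn 9.35 against 1.55. Heat shock genes had 2.44 with 4 of 15 higher (1 of 14 after scaling), including Dnajb1 (5.15 against 0.465). Of the integrated stress response Sesn2, Atf4 and Ddit3 were higher among 13, where scaling left 0 higher and 2 lower of 12, and Sesn2 also stands on the p53 list. Cholesterol genes had 5 of 13 higher (1 of 12 after scaling), with the regulator Srebf1 at 5.78 against 0.543. No gene passed 2-fold in either direction among 17 of the WNT pathway or 13 of FGF-ERK feedback, but after scaling 4 of 16 and 3 of 13 were lower. Of their kept promoters 3 of 14 WNT genes were higher and 1 lower, and 2 of 13 FGF-ERK genes were higher and 1 lower. Genes of the enzymes around the residue itself had promoter ratios of 2.10 for H2B ubiquitylation and 2.21 for acetylation writers, erasers and readers. Of 10 H2B ubiquitylation genes 0 passed 2-fold, and of 23 acetylation writers, erasers and readers Ep300, Hdac1 and Brd2 were higher and Kat6a lower, with a median of 0.56 (0.045 after scaling). Among 22 kept promoters of the acetylation list 7 were higher.

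Pluripotency markers were covered in both groups. All promoters had means of 0.771 CPM in TT and 0.489 in ET. Promoter means were below these in the primitive endoderm, trophectoderm, mesendoderm, neuroectoderm, and fibroblast and feeder lists. Of 14 core pluripotency genes Rif1 and Sox2 passed 2-fold upward and 0 downward, and the median of the list was 0.14 (-0.38 after scaling, with 2 higher and 1 lower). Of 20 naive genes Stat3, Zscan10 and Socs3 were higher and 0 lower, with a median of 0.26 (-0.31 after scaling, with 0 higher and 4 lower). Both shares of higher genes are close to the 12.8% of all genes. At kept promoters the shares were larger. There 6 of 14 core genes were higher and 1 lower, and 8 of 18 naive genes were higher and 0 lower. Of all genes with a kept promoter region 19.3% were higher. The promoter median log2 fold was 0.21 for core and 0.86 for naive genes, against 0.20 for all genes. The Sox2 promoter had 4.33 CPM in TT and 0.546 in ET. Pou5f1, which encodes OCT4, had 2.0 against 0.445 at the promoter and 1.72 against 3.26 at its strongest region, 1650 bp from the TSS, so these regions differed in opposite directions. The strongest Nanog region, 4253 bp from the TSS, had 5.28 against 4.47. Mean promoter coverage in TT and ET was 1.65 and 0.758 CPM for naive genes, and 0.384 and 0.581 for formative and primed genes, where Fgf5 was lower (no coverage against 0.812). It was 0.432 and 0.458 for primitive endoderm, 0.479 and 0.472 for trophectoderm, 0.292 and 0.279 for mesendoderm, 0.241 and 0.279 for neuroectoderm and 0.393 and 0.402 for fibroblast and feeder markers. Each of these 5 ratios lay between 0.86 and 1.05, below the 1.58 of all promoters. The germline and two-cell list had 0.421 in TT and 0.494 in ET, a ratio of 0.854, so its ET mean was not below that of all promoters. Its median was 0.19, and 0 of its 7 measured genes passed 2-fold in either direction (2 were lower after scaling). Over all kept regions of a gene the list medians were -0.59 for mesendoderm, -0.44 for trophectoderm, -0.27 for fibroblast and feeder markers, 0.0028 for primitive endoderm and 0.066 for neuroectoderm. The summed gene values were 3.54 in TT and 8.22 in ET for mesendoderm, and 7.71 and 11.8 for trophectoderm. Over the 5 lists 1 gene was at least 2-fold higher, Hnf4a, and genes that were lower included Foxa2, Krt18, Cer1 and Col3a1. A share of other cells and a change within mESCs cannot be told apart in merged bulk columns.

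**Figure D4:**
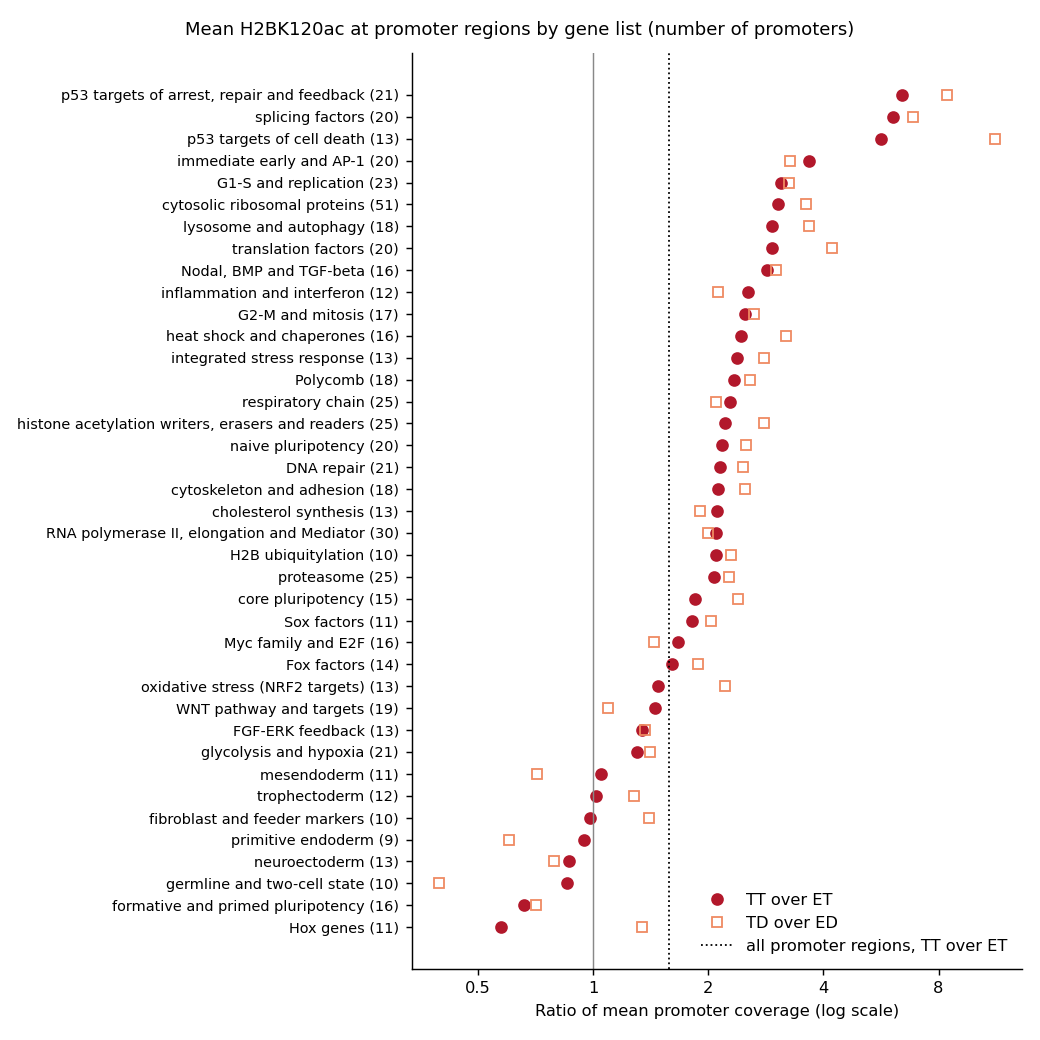
Ratio of mean promoter coverage (horizontal axis, log scale) for each gene list (vertical axis, number of promoters in parentheses), TT over ET as filled points and TD over ED as open squares. The dotted line is the TT over ET ratio of all promoters, 1.58. Both p53 lists and the splicing factors stand highest, at 6.42, 5.67 and 6.10, and the formative list and Hox genes lie lowest.

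At Foxd3, the targeted gene, the label could not be checked with this mark. Neither TT nor ET had coverage in the region inside the gene (chromosome 4, 99657277 to 99657563) or in its neighbour, and the region 170 bp from the TSS had 0.278 CPM in TT and 0.223 in ET. Between 19644 and 20918 bp before the gene 3 adjoining regions were lower in TT, with 0.579 against 3.29, 0.596 against 3.53 and 0.919 against 3.0. The ratio intervals were 0.003 to 1.04, 0.0026 to 0.868 and 0.027 to 1.40 in that order, so only the middle one excludes 1. In TD against ED the log2 folds of these regions were -1.16, 0.11 and -0.74. The region 13817 bp after the TSS had 3.98 in TT and 2.93 in ET (chromosome 4, 99670116 to 99670739), and the interval of its ratio, 0.46 to 4.12, includes 1.

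TD against ED, which shares no sample with TT against ET, gave the same direction at most of these regions. Of the 2892 regions well covered in TT and ET, 52.4% were at least 2-fold higher in TD against ED and 18.9% lower, and 90.7% had the same direction in both comparisons. Of the 1390 regions higher in TT 1281 were at least 2-fold higher in TD too and 0 were 2-fold lower. Of the 676 lower regions 468 were lower in TD and 6 higher. Across these regions, which share a table and its normalization, Spearman's rho of the log2 folds was 0.89. It was 0.68 across the 435 well-covered promoter regions, and 0.52 across the 49296 regions with a mean of TT and ET of at least 0.4 CPM. The median log2 fold was 0.89 for TT against ET and 1.15 for TD against ED, and at lower regions -1.81 against -1.40. For both p53 lists together the promoter ratio was 6.14 in TT over ET and 9.22 in TD over ED.

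Some regions differed between the comparisons. The region 370807 bp from Plekhb2 had 2.76 in TT and 4.88 in ET, but 0.379 in TD and 11.8 in ED. At the start site of Tet1, a methylcytosine dioxygenase gene, TT had 5.16 and ET 1.43, while TD had 9.92 and ED no coverage. Near Hrg the values were 3.06, 1.83, 0.628 and 3.83 in TT, ET, TD and ED, and within Zfhx3 3.28, 1.80, 7.27 and 0.111. Whether these differences exceed the spread between replicates was not tested.

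**Figure D5:**
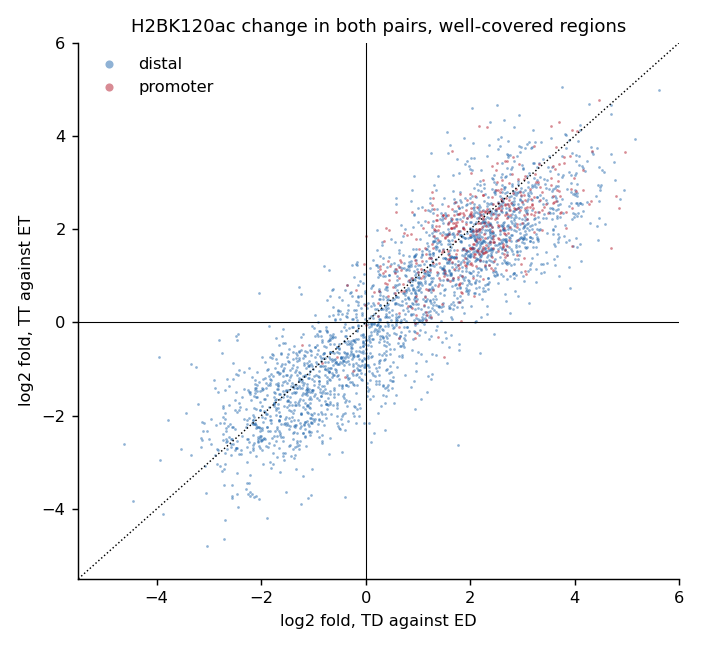
log2 fold of TT against ET (vertical axis) and of TD against ED (horizontal axis) at the 2892 well-covered regions, promoter regions in red and distal regions in blue. The dotted line marks equal folds. Points follow the line with a Spearman's rho of 0.89, and promoter points cluster in the upper right.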

How the data were processed

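H2BK120ac was measured by CUT&Tag in 3 TT and 3 ET samples. The authors deposited coverage signal, given as CPM in the table name, with the replicates of a group merged into 1 column. Per the submitters' processing notes the build is mm10. The aligner, the coverage tool and the choice of regions were not given in the sources used here. No deposited value is 0, and no value lies below 0.25 of the commonest, so uncovered bases seem not to enter the mean of a region, and sparse regions read high. Missing values were counted as 0. The tables were analysed apart, and 16 IgG columns that match no sample were not used.

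With 1 column per group no spread, test or p-value could be had. A region was called at 2-fold or more on log2(value + pseudocount), a scale that shrinks changes where coverage is low. As pseudocount served 0.4 (0.2 for H3K27ac), the rounded 25th percentile of the positive values. TSS came from RefSeq promoter windows (GRCm38.p6, 17492 genes) or, for 3998 genes, from the nearest deposited TSS window within 5 kb. Regions were assigned to the nearest coding TSS. Python 3.11.15, pandas 2.3.3, numpy 2.4.6, scipy 1.17.1 and matplotlib 3.10.9 were used.

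Named by rule were the 10 highest and 10 lowest log2 folds among promoter and distal regions covered in both groups, the 5 highest regions without coverage in the other group, all p53-list genes, members of the other 37 lists past 2-fold or with high promoter values, Foxd3, and the 5 regions in each direction that differed most from TD against ED. The members, the 39 lists and the rules were chosen with earlier results of these data known. The p53-element windows, the regions of highest TT, the loci, the miRNAs and a few list members quoted as exceptions were chosen after their values were seen. Alternatives covered the pseudocount, scaling, the minimum coverage, missing regions and distances.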

Additional observations from a re-analysis of the deposited data

Results flagged for a closer look

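At 6 well-covered regions TT was at least 2-fold below ET while TD was at least 2-fold above ED, and this difference was not tested. The difference of the log2 folds, TT against ET minus TD against ED, was -4.39 in a region of Hmgxb4 near Tom1, with 0.675 CPM in TT, 6.25 in ET, 3.07 in TD and 0.624 in ED. Near Apela, which encodes a peptide hormone of early embryos, it was -2.71 (1.12, 4.36, 3.44 and 1.44 in the same order), and near Zscan2 it was -2.68 (1.08, 3.77, 3.59 and 1.36). Within Sgms1, a sphingomyelin synthase gene, the difference was -2.46. Within Fn1, the fibronectin gene, it was -2.37, and within Nfatc2ip it was -2.33. For all but Tom1 the counting interval of the TT to ET ratio includes 1.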

How the results depend on the processing

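No paired analysis was possible because each group is 1 merged column, and leaving out a replicate was not possible for the same reason. The cause of each change below was not tested, except that a lower or higher minimum coverage tests more or fewer regions. With a minimum of 3 fragments the counts were 2861 higher and 1911 lower regions, 964 higher promoter regions and 1876 lower distal regions. With 10 fragments they were 339, 68, 50 and 68. The promoter median log2 fold of 2.0 became 1.69 with double and 2.31 with 0.25 times the pseudocount, 1.33 with median centring, 1.89 with quantile normalization, 1.41 with 3 and 2.75 with 10 fragments, and stayed positive throughout. The distal median of 0.45 turned to -0.20 with median centring and to -0.072 with 3 fragments, and was 0.20 with quantile normalization and 1.52 with 10 fragments. The share of regions with the same direction as in TD against ED was 89.2% with median centring, 86.0% with 3 and 94.1% with 10 fragments. The p53 count of 21 ranged from 15 (double pseudocount, median centring) to 24 (gene window of 10 kb). Median centring moved the median of all measured genes from -0.01 to -0.45 and the share of genes past 2-fold to 615 higher and 2297 lower. Under it the medians of both p53 lists (0.69 and 1.05), splicing (0.67), G1-S (0.43) and ribosomal protein genes (0.20) stayed positive, and those of the core (-0.38) and naive (-0.31) lists turned negative. Depth limits single regions: at 1 fragment in ET the upper bound of a ratio cannot be set usefully.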

Other observations

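Regions higher in TT that lay within 25 kb of each other were joined into loci, an analysis added after the values were seen. The 1390 regions formed 1072 loci, of which 840 held 1 region and 58 held 3 or more. The largest, with 7 regions, was at Mcl1, which encodes an antiapoptotic BCL2 relative (chromosome 3, 95650552 to 95664096), with up to 6.82 CPM in TT and 2.24 in ET, and TD was 2-fold above ED at all 7 as well. Ulk1 and the neighbourhoods of Eif4ebp1 and Fbxw9 held 6 each, Lrp1 and Lama5 5 each, and Mdm2 4. Loci of replication-dependent histone genes around H3c3 held 4 regions, of which 2 were 2-fold higher in TD. The 676 lower regions formed 537 loci, of which 19 held 3 or more. The largest of these held 4 regions each and lay at Kcnj3, a potassium channel gene (up to 14.7 CPM in ET and 1.75 in TT), Hpgd, Penk, Car2 and Dapl1.

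Of 1005 miRNA hairpins 89 had a well-covered region within 20 kb, and hairpins of a cluster share regions. The pair of regions with 29.8 and 15.8 CPM in TT near Gpr157 lay 19186 and 18546 bp before the hairpin of Mir34a (chromosome 4, 150068454 to 150068555), a p53-regulated miRNA. Near Mir200a, Mir200b and Mir429, which act on epithelial identity, adjoining regions had 9.71 in TT with no coverage in ET and 9.33 against 1.46. The mature sequences from RefSeq (GRCm38.p6) have their seed, bases 2 to 8, in capitals.
mmu-miR-34a-5p: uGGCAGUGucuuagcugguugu
mmu-miR-200a-3p: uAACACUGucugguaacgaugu
mmu-miR-200b-3p: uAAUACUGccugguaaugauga
mmu-miR-429-3p: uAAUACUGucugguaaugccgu
The miR-200b and miR-429 sequences share a seed, and that of miR-200a differs from it. Regions near the Mir290a cluster, the main miRNA cluster of mESCs, had 8.98 against 5.24 and 6.98 against 3.28. Near Mir29a the region had 0.475 in TT and 4.50 in ET.

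Among promoter windows with a kept region, those with 28 or more CpG were at least 2-fold higher in TT in 24.0% of cases, those with 18 to 27 in 20.8% and those with 17 or fewer in 16.1%. The shares at least 2-fold lower were 1.67%, 2.08% and 4.88% in that order. Of the 8929 genes with a kept promoter region 19.3% were higher and 3.4% lower. The region of highest ET coverage, 55263 bp from 4930467E23Rik, was high in all 4 columns (26.7 CPM in TT, 16.7 in ET, 22.2 in TD and 18.5 in ED) and in H3K27ac (48.5 in EtOH).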
